A study of Rattus norvegicus with 39 samples.

Results

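The serine tRNA genes were described here in sperm small RNA of rats exposed to ethylene glycol monomethyl ether (EGME). Members were all rows of the deposited tRNA gene table whose name carries Ser directly after the gene number, 25 of 402 rows. In every library, chr10.trna10835-SerGCT, chr17.trna3899-SerGCT and chr3.trna8934-SerGCT held the same count, so 23 distinct serine rows remained of 242 distinct rows in the table. By anticodon, 9 rows were SerGCT (7 distinct), 8 SerAGA, 4 SerTGA, 3 SerCGA and 1 SerACT. The row names place the members on 11 chromosomes. Chromosome 17 held 12 of the 25 (48%), against 92 of all 402 rows (22.9%). Finer positions were not used here.

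The study profiled small RNA in mature sperm from the cauda epididymis of wild-type male Fischer rats aged 11 to 12 weeks. EGME, a glycol ether solvent, was given by daily gavage for 5 days, and sperm was collected 5 weeks after the last dose. The control group received water alone (EGME0, 10 males), and the treated groups received 50 mg/kg/d (EGME50, 10 males), 60 mg/kg/d (EGME60, 9 males) or 75 mg/kg/d (EGME75, 10 males). Each of the 39 libraries was total RNA of 1 male, so the p-values below measure the spread between males. All groups went through gavage, and the dose is the only labelled difference between them apart from the sequencing chip.

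A tRNA carries an amino acid to the ribosome and reads the codon with its anticodon. Serine is served by separate anticodon families: SerGCT reads the AGC and AGU codons, while SerAGA, SerTGA and SerCGA read the UCN codons. All of them are charged by a single cytosolic enzyme, seryl-tRNA synthetase, which recognises the long variable arm rather than the anticodon. Leucine and selenocysteine tRNAs are the other cytosolic tRNAs with such an arm. In sperm, tRNA-derived RNAs form a large part of the small RNA, and fragments are gained during passage through the epididymis. A toxic metabolite of EGME is known to injure spermatocytes in the testis.

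Many serine rows held nearly the same counts. Beyond the identical rows, 3 near-identical sets were formed by joining rows whose median ratio of counts over the libraries lay within 10%. Rows could be joined through a common neighbour, so the ends of a set, and single libraries, could differ by more. The first comprised 5 SerGCT rows on chromosomes 1, 10, 17 and 3 (3 distinct), whose highest row, trna10567-SerGCT, stood at a median of 1.01 times its lowest, trna1635-SerGCT (range 1.00476 to 1.16). The second joined 4 SerAGA rows (trna2455, trna1586, trna491 and trna1642) with 2 SerTGA rows (trna3896 and trna1648), at a median ratio of 1.13 between trna1648-SerTGA and trna2455-SerAGA (range 1.02 to 2.76). The third joined trna2441-SerTGA with trna9814-SerCGA, at a median ratio of 1.04 (range 0.851 to 1.11). The sums for SerAGA and SerTGA, and in part those for SerTGA and SerCGA, therefore rest on counts that move together and are not independent of each other. With every near-identical set taken as 1, 15 serine sets remained.

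The tRNA table held 52085 to 5545434 counts per library over its distinct rows, with EGME75 replicate 24 lowest and EGME0 replicate 33 the lowest control. MicroRNA markers of other cells moved with dose in the same libraries. The 6 miRNAs listed for sperm and spermatids were the miR-34b, miR-34c and miR-449 arms. They summed to 19.8 to 33.1% of miRNA counts at EGME0 and to 6.48 to 22.1% at EGME75. Of the 6 medians, 4 were lower, and miR-449c-5p had a median of 0 in each group. That of miR-34b-5p was slightly higher (1.35% at EGME0 and 1.37% at EGME75). Of 7 listed blood cell miRNAs, 6 were in the table. Their sum ran from 0 to 0.343% at EGME0 and from 0.248 to 4.82% at EGME75, with 3 medians higher, 1 lower, and miR-144-3p and miR-142-3p at a median of 0 in each group. The 9 epithelial and muscle miRNAs summed to 1.63 to 3.92% at EGME0 and 3.59 to 13.2% at EGME75, with 6 medians higher, none of the 9 lower, and miR-141-3p and miR-1-3p at a median of 0 in each group. The part of these markers in the serine results was not tested. In bulk RNA, fewer cells of a type and less RNA per cell cannot be told apart.

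Serine rows were the source of a large part of the tRNA counts in control sperm, and their share was lower at the 2 upper doses. The serine share of tRNA counts (each distinct row once) had a lowest, median and highest value of 28.99, 43.0 and 49.2% at EGME0. At EGME50 these values were 28.2, 41.0 and 52.6%. At EGME60 they were 14.4, 29.8 and 39.2%, and at EGME75 they were 7.20, 20.2 and 29.4%. The EGME50 range enclosed that of the controls. All 9 males at EGME60 and all 10 at EGME75 lay below the control median, and 9 of the 10 at EGME75 lay below the lowest control.

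The mean share was 40.9% ± 7.54 (SD) at EGME0 and 39.2% ± 7.89 at EGME50, a difference of -1.69 points that did not pass the threshold (two-sided permutation test, p = 0.626, adjusted p = 0.626 by Benjamini-Hochberg over 9 tests). It was 27.4% ± 8.19 at EGME60, a difference of -13.5 points (exact permutation p = 0.0021, adjusted p = 0.0063). At EGME75 the mean was 20.1% ± 6.07, a difference of -20.8 points (permutation p = 3e-05, adjusted p = 2.7e-04). Libraries ran on 13 chips of 3. Within the chips that held both groups, the difference was -8.83 points at EGME60 (exact permutation p = 0.0833, lower on 5 of 5 chips) and -19.1 points at EGME75 (exact permutation p = 0.03125, the smallest that 6 chips can give, lower on 6 of 6). Neither passed after adjustment.

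The size of the share depended on how repeated rows were counted. With all 402 rows as deposited, the mean serine share was 29.1, 27.1, 17.6 and 12.1% from EGME0 to EGME75. With each near-identical set counted once it was 22.7, 21.4, 13.8 and 9.61%. The differences at EGME60 and EGME75 passed the threshold with either count.

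SerGCT was the most abundant serine anticodon in each group, and its share of tRNA counts was lower at the 2 upper doses. Its lowest, median and highest shares were 21.5, 32.4 and 38.6% at EGME0 and 19.5, 30.8 and 41.6% at EGME50. They were 8.98, 23.3 and 29.4% at EGME60, and 4.67, 14.4 and 22.5% at EGME75. Every EGME60 and EGME75 male lay below the control median, and 9 of 10 EGME75 males lay below the lowest control. In edgeR, SerGCT fell to 56.3% of control at EGME60 (log2 fold change -0.83, SE 0.26, Benjamini-Hochberg adjusted p = 0.0165) and to 35.3% of control at EGME75 (-1.50, SE 0.25, adjusted p = 2.39e-06). From the lowest value upward, SerGCT ranked 2 of 47 anticodons tested at EGME75, after AlaGGC (-1.58) and before LeuTAA (-1.45).

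SerAGA, which reads UCU and related codons through a modified first base, had shares of 3.83, 5.56 and 7.08% at EGME0 (lowest, median, highest) and 4.30, 5.40 and 6.01% at EGME50. The same values were 3.08, 3.43 and 5.63% at EGME60 and 1.20, 2.92 and 3.80% at EGME75. The EGME75 and EGME0 ranges did not overlap, which was the case for no other serine anticodon. The gap was narrow, from 3.80% (highest at EGME75) to 3.83% (lowest at EGME0), and the ranges of every single SerAGA row overlapped. How many anticodons outside the family had ranges apart was not counted, so this separation is not shown to be unusual. SerAGA fell by 0.63 on the log2 scale at EGME60 (SE 0.19, edgeR Benjamini-Hochberg adjusted p = 0.0158) and by 1.31 at EGME75 (SE 0.19, adjusted p = 2.34e-07).

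SerTGA, read from the same near-identical set in part, had shares of 2.62, 3.92 and 4.94% at EGME0, and 3.02, 3.92 and 4.39% at EGME50. It stood at 2.11, 3.03 and 3.76% at EGME60 and at 1.101, 2.23 and 2.66% at EGME75. All treated males of the 2 upper doses lay below the control median. The log2 fold change was -0.57 at EGME60 (SE 0.18, edgeR Benjamini-Hochberg adjusted p = 0.0182) and -1.24 at EGME75 (SE 0.18, adjusted p = 2.34e-07).

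SerCGA was the least abundant of the tested serine anticodons with each distinct row counted once. It had shares of 0.334, 0.487 and 0.558% at EGME0 and 0.352, 0.517 and 0.664% at EGME50. The values were 0.218, 0.369 and 0.562% at EGME60 and 0.177, 0.355 and 0.387% at EGME75. Its groups overlapped more than those of the other anticodons: 4 of 10 EGME75 males lay below the lowest control, and 4 of 10 EGME50 males lay above the highest. SerCGA fell by 0.48 at EGME60 (SE 0.19, edgeR Benjamini-Hochberg adjusted p = 0.0410) and by 0.93 at EGME75 (SE 0.18, adjusted p = 2.95e-05) on the log2 scale. The EGME60 call was lost in 13 of the 39 fits that left out 1 library. Of 10 alternatives with all libraries, 6 kept it. Among those that lost it were library totals, no filter and chip as a block (edgeR adjusted p = 0.123, 0.0728 and 0.0921).

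**Figure D1:**
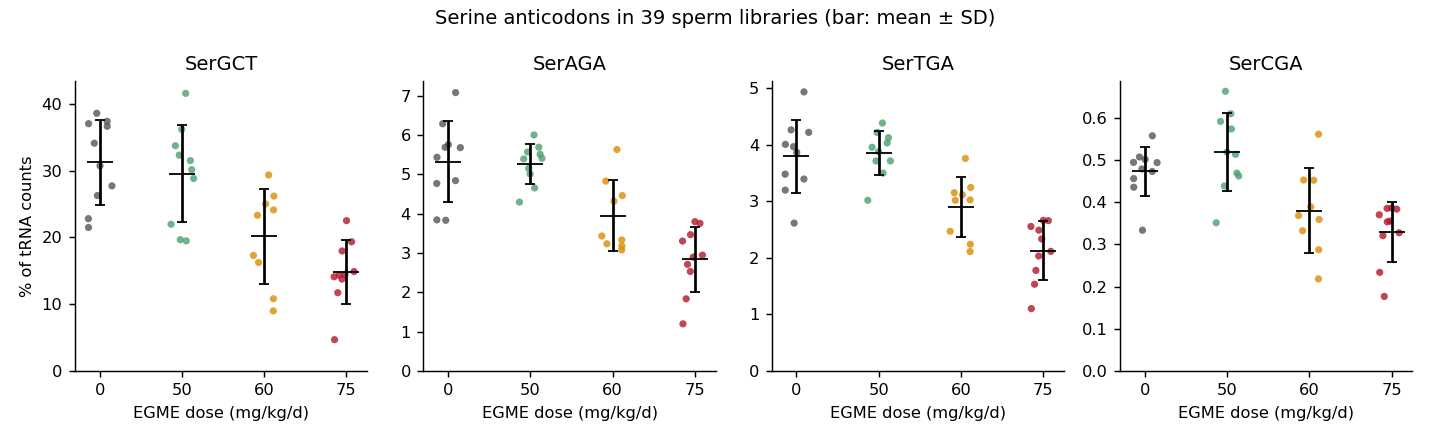
Share of tRNA counts (percent, each distinct row once) of the 4 tested serine anticodons by EGME dose; points are males, bars the mean and SD. SerGCT medians run 32.4, 30.8, 23.3 and 14.4% from control to 75 mg/kg/d, and the EGME75 points of SerAGA all lie under the control points.

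All 4 serine anticodons tested were thus lower at EGME60 and at EGME75, where edgeR called 31.9% and 53.2% of the 47 anticodons in either direction, and 17% and 29.8% lower. No serine anticodon was called at EGME50, and 0% of all anticodons were. The fold changes there ran from -0.11 to 0.11, none of the 4 had an unadjusted p under 0.05, and DESeq2 and limma-voom also called 0. The slope over all doses, given as log2 change over 75 mg/kg/d, was -1.26 for SerGCT, -1.07 for SerAGA, -0.99 for SerTGA and -0.76 for SerCGA (edgeR adjusted p = 4.11e-04, 2.28e-04, 3.69e-04 and 0.00358). Slopes were called for 48.9% of anticodons in either direction and for 27.7% downward. With chip as a fixed block, all 4 kept their call at EGME75 and for the slope, and none of the 4 was called at EGME60.

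Neighbouring doses were compared directly. From EGME50 to EGME60, SerAGA (-0.58), SerTGA (-0.56) and SerCGA (-0.59) passed in edgeR (each with adjusted p = 0.0447), and SerGCT at -0.72 did not (adjusted p = 0.0551), with 10.6% of anticodons called (2.13% higher and 8.51% lower). From EGME60 to EGME75, SerGCT (-0.67, adjusted p = 0.0359), SerAGA (-0.68, adjusted p = 0.0114) and SerTGA (-0.67, adjusted p = 0.0105) passed, and SerCGA at -0.44 did not (adjusted p = 0.0589), with 34% of anticodons called. These step calls were fragile. All calls from EGME50 to EGME60 were lost with RLE factors, library totals or no filter, and each was lost in 14 or 15 of the 39 fits without 1 library. The SerGCT call from EGME60 to EGME75 was lost in 14 of them. With chip as a block, 0 serine anticodons passed at either step.

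Counts were not corrected for length, so the order of anticodons is one of counts. With each distinct row counted once, the order by median in every group was SerGCT, SerAGA, SerTGA, SerCGA and SerACT. SerAGA and SerTGA were the only neighbours in that order whose ranges overlapped, and they overlapped in every group. The places of SerAGA, SerTGA and SerCGA depend on how near-identical rows are counted. With each set counted once, trna1648-SerTGA stood for the set it shares with the abundant SerAGA rows. The largest SerAGA row left was then trna3849, at a mean of 1471 counts per library, against 2967 for trna2466-SerCGA. SerACT had 1 row, with a mean of 2.64 counts per library and at most 0.000206% of tRNA counts, and was not tested.

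At the level of single rows, 20 of the 23 distinct serine rows passed the filter on low counts. At EGME75, edgeR called 18 of the 20, all lower, against 64.7% of 190 rows called in either direction (36.8% higher and 27.9% lower). The median log2 fold change of the 20 was -1.19, against 0.16 over all rows tested and 0.23 over the 170 rows that were not serine, so that the serine median lay 1.36 below that of the whole table. That distance ranged from -1.42 to -1.21 over the alternative scalings, tools and row counts. By anticodon, 6 of 6 SerGCT rows, 6 of 7 SerAGA, 4 of 4 SerTGA and 2 of 3 SerCGA rows were called lower. Rows of a near-identical set repeat much the same counts, so these calls are not independent of each other. With each such set kept once, 11 of 12 rows were called, and the share of all rows called there is not given here.

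The most abundant rows were those of the first SerGCT set. The row trna10567-SerGCT had lowest, median and highest shares of tRNA counts of 7.28, 10.8 and 12.8% at EGME0, 6.53, 10.2 and 13.8% at EGME50, 3.06, 7.74 and 9.73% at EGME60, and 1.70, 4.88 and 7.51% at EGME75. All EGME75 males were below the control median. Its log2 fold change at EGME75 was -1.33 (SE 0.26, edgeR Benjamini-Hochberg adjusted p = 3.62e-05), and trna10835-SerGCT and trna1635-SerGCT, which repeat nearly the same counts, both stood at -1.36 (adjusted p = 4.01e-05). The most abundant members of the second set, trna1648-SerTGA and trna1642-SerAGA, had median shares of 1.42 and 1.41% at EGME0 and of 0.845 and 0.786% at EGME75. Both were called lower, at -0.92 (SE 0.17, adjusted p = 1.4e-05) and -1.06 (SE 0.19, adjusted p = 1.05e-05).

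The serine row with the lowest log2 fold change at EGME75 was trna1626-SerGCT of chromosome 17, which belonged to no near-identical set. Its lowest, median and highest shares were 0.0250, 0.0415 and 0.0755% at EGME0 and 0.00747, 0.0183 and 0.0327% at EGME75. The ranges overlapped, with 8 of 10 EGME75 males below the lowest control. The log2 fold change was -1.44 (SE 0.23, edgeR Benjamini-Hochberg adjusted p = 1.57e-06). The row trna3849-SerAGA, also outside any set and picked out after its values were seen, stood at -1.34 at EGME75 and at -0.23 at EGME60 (adjusted p = 9.72e-05 and 0.545). Among the called rows, trna956-SerAGA of chromosome 15 changed least (-0.74, SE 0.29, adjusted p = 0.0230), at a mean of 177 counts per library. Its call was lost with library totals alone, limma-voom, chip as a block, total depth as a covariate and without EGME0 replicate 18 (adjusted p from 0.00193 to 0.215 over the alternatives that kept all libraries).

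**Figure D2:**
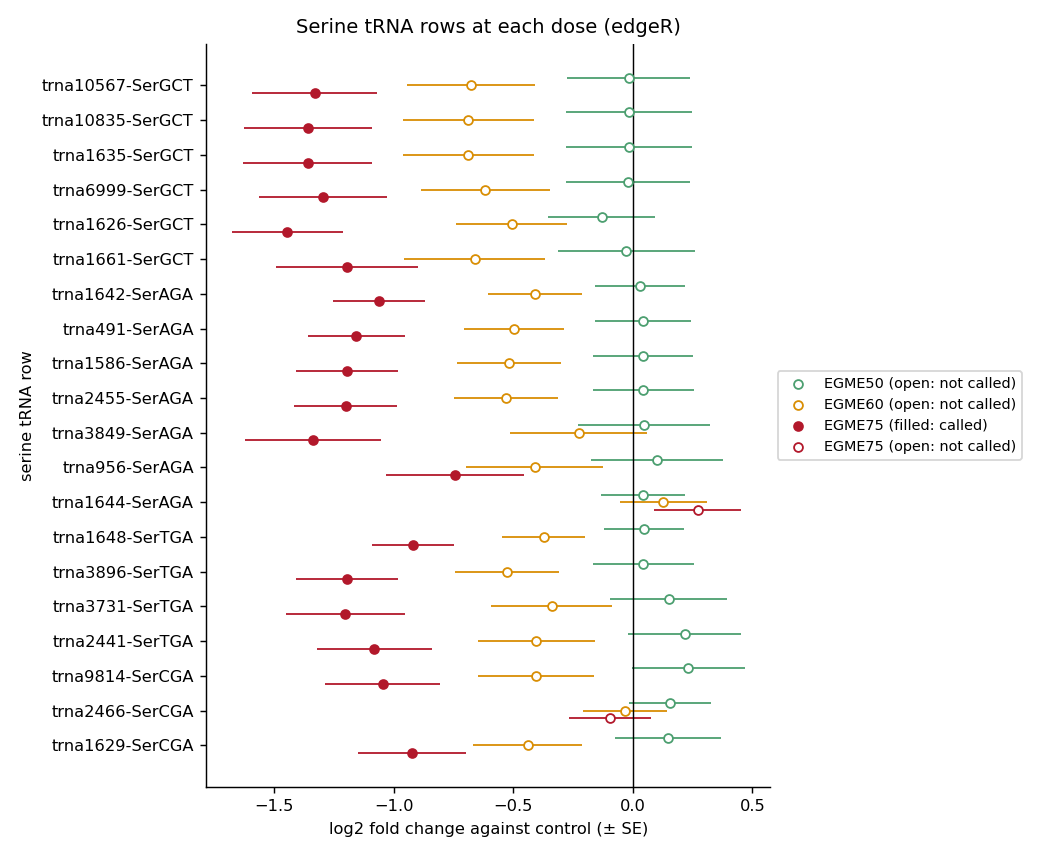
Log2 fold change against control (edgeR, bars ± SE) of the 20 tested serine rows at each dose; filled points passed a Benjamini-Hochberg adjusted p of 0.05. At EGME75, 18 rows are filled and left of 0; the open points there are trna2466-SerCGA and trna1644-SerAGA.

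Both rows that were not called at EGME75 are named here after their values were seen. The row trna2466-SerCGA of chromosome 10, with a mean of 2967 counts per library, had shares of 0.0717, 0.106 and 0.125% at EGME0 and 0.0499, 0.111 and 0.159% at EGME75 (lowest, median, highest). The EGME75 range enclosed that of the controls. Its log2 fold change was -0.09 (SE 0.17, edgeR Benjamini-Hochberg adjusted p = 0.650), while the other SerCGA rows, trna9814 and trna1629, stood at -1.05 and -0.92. Its sign and call depended on the scaling: it ran from -0.46 to 0.16 over the alternatives, and it was called lower with all rows as deposited, with near-identical rows kept once and with scaling on the rows that were not serine. The row trna1644-SerAGA of chromosome 17 had only 47.7 counts per library on average. Its shares were 0.00103, 0.00153 and 0.00268% at EGME0 and 0.000785, 0.00199 and 0.00357% at EGME75, with 8 of 10 EGME75 males above the control median. Its log2 fold change was 0.27 (SE 0.18, adjusted p = 0.244). It ran from -0.10 to 0.54, and it was called higher with library totals alone.

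At EGME60 no serine row was called. A negative log2 fold change was seen for 19 of 20, against 72 of all 190 rows. An unadjusted p under 0.05 was seen for 12 of the 20, against 77 of the 190. Of all rows, 21.6% were called in either direction and 2.63% lower. The median of the 20 was -0.47, against 0.14 over all rows. The smallest p belonged to trna10567-SerGCT (-0.68, SE 0.27, edgeR Benjamini-Hochberg adjusted p = 0.0604). This count of 0 was close to the threshold: DESeq2 called 13 of 23 serine rows, limma-voom 0 of 20, and edgeR with all rows as deposited 17 of 22. The shares of all rows called in these alternatives are not given here. It was also above 0 in 12 of the 39 fits without 1 library, reaching 16 without EGME50 replicate 36. At EGME50 no serine row was called by edgeR, DESeq2 or limma-voom, and 0 had an unadjusted p under 0.05. Of all rows, edgeR called 0% at this dose. The smallest p there belonged to trna9814-SerCGA (0.23, SE 0.24, adjusted p = 0.871).

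The slope on dose was called for 17 of 20 serine rows, all lower, against 61.1% of all rows in either direction (37.9% higher and 23.2% lower). It was steepest for trna1635-SerGCT and trna10835-SerGCT (each -1.11 over 75 mg/kg/d, edgeR adjusted p = 0.00192). Among the called rows it was shallowest for trna1648-SerTGA (-0.72, adjusted p = 0.00224) and trna1629-SerCGA (-0.73, adjusted p = 0.0126). From EGME60 to EGME75, 12 of 20 serine rows were called, all lower, with 32.1% of all rows called and 17.9% lower. Without EGME60 replicate 21 the count was 4, and with chip as a block it was 0. From EGME50 to EGME60 edgeR called 0 of 20 serine rows, with 0% of all rows called. An unadjusted p under 0.05 was seen in that fit for 14 of the 20, against 49 of all 190 rows. DESeq2 called 11 of 23 serine rows at this step and limma-voom 0 of 20. The shares of all rows that these 2 tools called are not given here.

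Of the members, 3 rows did not pass the filter. The row trna4976-SerGCT of chromosome 1 had a mean of 2.36 counts and trna3872-SerACT of chromosome 17 had 2.64, and they were above 0 in 31 and 32 libraries. The row trna4680-SerAGA of chromosome 19 had counts in 4 libraries, all at EGME0 or EGME50, with a highest count of 8. Together they added almost nothing to the serine sum.

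The balance inside the family was tested by the log2 ratio of SerGCT to the other serine anticodons, which needs no scaling between libraries. In controls it ran from 1.38 to 2.10, with a mean of 1.70 ± 0.25 (SD). The treated groups ran from 0.97 to 1.94 (EGME50, mean 1.58 ± 0.31), 0.64 to 2.08 (EGME60, mean 1.40 ± 0.46) and 0.88 to 1.72 (EGME75, mean 1.44 ± 0.25), all overlapping the controls. SerGCT made up a median of 75.4, 75.3, 73.7 and 73.8% of serine counts in these groups. The differences from control were -0.12 (permutation p = 0.362, adjusted p = 0.465), -0.29 (exact permutation p = 0.101, adjusted p = 0.152) and -0.26 (permutation p = 0.0321, adjusted p = 0.0578), and none passed after adjustment. At EGME75, 7 of 10 males lay below the control median. With near-identical rows counted once the EGME75 difference was -0.37 and passed (permutation, adjusted p = 0.0347), as it did without 1 library in 6 of 20 cases (EGME0 replicates 26, 33 and 34, EGME75 replicates 16, 24 and 40). Without EGME60 replicate 13 the EGME60 difference was -0.38 and passed (exact permutation, adjusted p = 0.0445).

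Serine was then set against leucine, the other large family with a long variable arm. The log2 ratio of serine to leucine counts had a lowest, median and highest value of 1.67, 2.62 and 2.80 at EGME0 and 1.45, 2.39 and 2.80 at EGME50. At EGME60 the values were 0.01, 1.62 and 2.45, and at EGME75 they were -0.93, 1.096 and 2.01. All males of both upper doses lay below the control median. The mean was 2.39 ± 0.39 (SD) at EGME0, and it differed from control by -0.14 at EGME50 (permutation p = 0.450, adjusted p = 0.507) and -0.95 at EGME60 (exact permutation p = 0.00443, adjusted p = 0.00996), and the EGME75 difference was -1.43 (permutation p = 8e-05, adjusted p = 3.6e-04). Within chips the differences were -0.51 at EGME60 (exact permutation p = 0.111, 5 of 5 chips lower) and -1.15 at EGME75 (exact permutation p = 0.03125, 6 of 6 chips lower), and neither passed after adjustment. The level of the ratio depended on how repeated rows were counted. With near-identical rows counted once, its mean was 1.17 at EGME0 and -0.22 at EGME75.

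**Figure D3:**
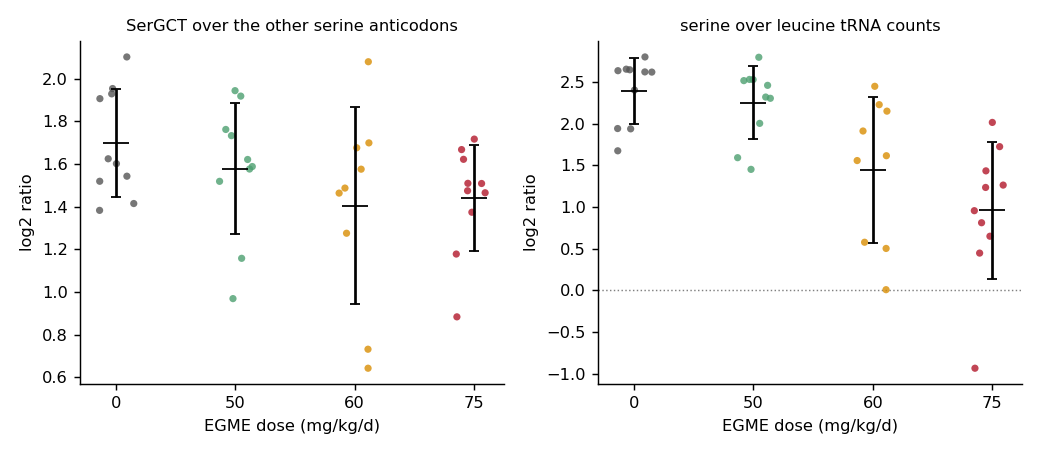
Log2 ratio of SerGCT to the other serine anticodons (left) and of serine to leucine counts (right) per male by EGME dose, with mean and SD; the dotted line marks equal counts. With each distinct row counted once, as drawn, the right-hand means run from 2.39 at EGME0 to 0.96 at EGME75, where 1 male lies under 0.

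Leucine rows did not share the one-sided pattern of the serine rows. Of 16 leucine rows tested, 0 were called at EGME50, 1 was higher and 1 lower at EGME60, and 6 were higher and 5 lower at EGME75, with a median log2 fold change of 0.19. The leucine shares called at EGME75 were near those of the whole table (36.8% higher and 27.9% lower). By anticodon, LeuTAA and LeuCAA were lower at EGME75 (both -1.45, edgeR Benjamini-Hochberg adjusted p = 2.39e-06), while LeuTAG, LeuCAG and LeuAAG were at 0.28, 0.37 and 0.44 and were not called. The selenocysteine row, which decodes a recoded stop codon, was at -0.22 at EGME75 (edgeR Benjamini-Hochberg adjusted p = 0.348), and in the fit by anticodon it was at -0.43 (adjusted p = 0.0523). It was not called against control at any dose in either fit, and it was called lower from EGME60 to EGME75 in both (-0.61 and -0.63, adjusted p = 0.0257 and 0.0152).

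By Spearman's rho of log2 CPM (counts scaled to a common library size) with SerGCT over the 39 libraries, the most alike anticodons outside the family were LeuTAA (0.888), LeuCAA (0.802) and AlaTGC (0.794). Pearson's r was 0.915, 0.842 and 0.639 for these. Inside the family, rho was 0.947 for SerAGA, 0.901 for SerTGA and 0.774 for SerCGA. All these values share libraries and scaling with SerGCT and include the dose differences, so they describe likeness only.

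The small differences inside the near-identical sets showed another pattern, picked out after the values were seen and described with no test. The surplus is the count of the highest row less that of the lowest. For trna1648-SerTGA over trna2455-SerAGA it was 0.0350, 0.0642 and 0.192% of tRNA counts at EGME0 (lowest, median, highest), and 0.0364, 0.0728 and 0.160% at EGME50. It was 0.0669, 0.159 and 0.313% at EGME60, and 0.111, 0.170 and 0.403% at EGME75. The surplus was above the control median in 9 of 9 and 10 of 10 males of the 2 upper doses, while the lower row itself had medians of 1.35, 1.32, 0.810 and 0.692%. As a percent of trna2455-SerAGA, its median was 4.70, 5.71, 21.7 and 22.7 in the 4 groups.

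In the SerGCT set, the surplus of trna10567-SerGCT over trna1635-SerGCT had medians of 0.107, 0.0898, 0.134 and 0.152% of tRNA counts from EGME0 to EGME75, and the ranges overlapped. The lower row had medians of 10.7, 10.2, 7.68 and 4.72%. As a percent of that row, the surplus had medians of 0.929, 0.835, 1.56 and 3.10, with 10 of 10 EGME75 males above the control median and 3 above the highest control. As a percent of tRNA counts, the surplus of trna2441-SerTGA over trna9814-SerCGA went the other way at EGME75. Its medians were 0.0116, 0.0114, 0.0122 and 0.00528%, and 9 of 10 EGME75 males lay below the lowest control. As a percent of trna9814-SerCGA, it was above the control median in 7 of 9 EGME60 males. At EGME75 8 of 10 were below that median, 5 below the lowest control and 1 above the highest. This surplus was above 0 in 37 of the 39 libraries. Which reads make up these differences cannot be read from the counts.

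**Figure D4:**
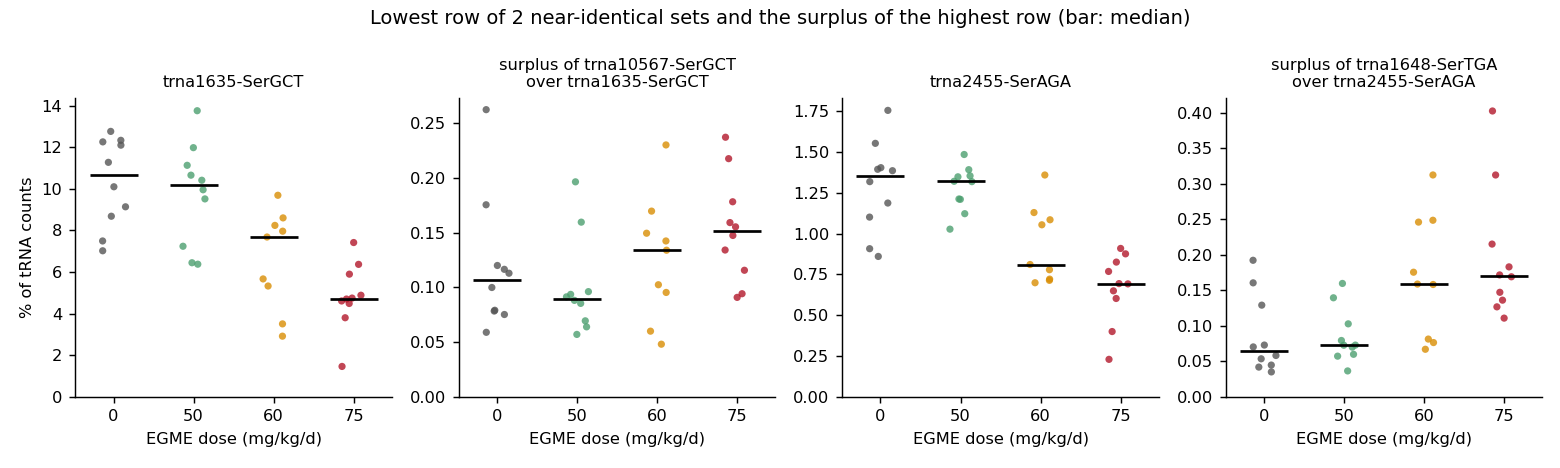
Percent of tRNA counts per male by EGME dose for the lowest row of 2 near-identical sets and for the surplus of the highest row over it; bars are medians. Medians of trna2455-SerAGA run from 1.35 to 0.692% and those of the surplus of trna1648-SerTGA from 0.0642 to 0.170%.

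A second table of the study, counts on RNAcentral entries, held 5 entries named as serine tRNA. They made up a median of 1.84, 1.82, 1.46 and 1.501% of the counts on tRNA entries of that table from EGME0 to EGME75. The range at EGME75 (0.957 to 2.81%) enclosed that at EGME0 (1.004 to 2.45%), and 8 of 10 EGME75 males lay below the control median. No test was made on these.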

How the data were processed

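Reads of small RNA libraries, made from 10 ng of sperm RNA with an Ion total RNA kit per the labels' protocols, were counted by the authors on the sense strand. The deposited values are raw counts per tRNA gene (whole numbers, checked), with Rnor_6.0 in the table names. FastQC, Bowtie and DESeq2 are listed per the submitters' processing notes. Their settings and the treatment of reads fitting several genes are not given in the sources used here. Every deposited column matched a sample.

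Rows with identical counts within 1 anticodon were kept once, and 2 rows without an anticodon were left out of the anticodon sums. Rows and anticodons were scaled and tested separately with edgeR 4.0.16 (R 4.3.3, limma 3.58.1): filterByExpr by group, TMM factors (0.637 to 1.49 for rows, 0.713 to 1.45 for anticodons), robust quasi-likelihood tests over all 39 libraries, and Benjamini-Hochberg adjustment over the 190 rows or 47 anticodons tested with a threshold of 0.05. SE is the log2 fold change divided by the root of the F statistic. Shares and log2 ratios (pseudocount 0.5) were compared with 100000 permutations, all relabelings being enumerated for EGME60, with adjustment over 9 tests (scipy 1.17.1 and pandas 2.3.3 in Python 3.11.15). The edgeR procedure was tested on simulated data. Alternatives were RLE factors, library totals, no filter, DESeq2 1.42.0, limma-voom, chip as a block, depth as a covariate, all rows as deposited and leaving out each library. Near-identical rows kept once and scaling on non-serine rows were added after seeing the data.

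All serine anticodons were named, with the 5 rows of largest share, the 2 highest and 2 lowest called rows per comparison whose mean count reached 10 (or the smallest p), and the 3 anticodons most like SerGCT. Members, lists and the rule were chosen with earlier results of these data known.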

Additional observations from a re-analysis of the deposited data

Results flagged for a closer look

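Within each dose group, the highest and lowest male were compared with the rest by Dixon's ratio of the gap to the range, over 40 group sets of serine values. Of these, 2 exceeded the critical value (0.466 for 10 males), and chance alone flags about 1 in 20 sets. The log2 ratio of serine to leucine counts was -0.93 in EGME75 replicate 7, while the other 9 EGME75 males lay between 0.45 and 2.01. The same male had the lowest serine share of all libraries (7.20%). Without it the EGME75 difference in the ratio was -1.22 in place of -1.43 and still passed the threshold. The surplus of trna2441-SerTGA over trna9814-SerCGA was 0.0199% of tRNA counts in EGME50 replicate 11, while the other EGME50 males lay between 0.00910 and 0.0146%.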

How the results depend on the processing

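Every serine call at EGME75 kept its direction in each setting, and the 4 anticodons stayed called at EGME75 and for the slope in all of them. With near-identical rows kept once, 2 of these labels covered other sums. SerAGA then held none of its abundant rows, whose set was kept as trna1648-SerTGA, and SerCGA lacked trna9814. That setting is therefore no check of the SerAGA and SerCGA sums as reported. Counts of called rows moved most at EGME60 (0 of 20 as reported). They were 13 of 20 with RLE factors, 9 of 20 with library totals and 13 of 20 with scaling on non-serine rows. Without a filter 12 of 23 were called, and with DESeq2 13 of 23. All rows as deposited gave 17 of 22, and near-identical rows kept once gave 6 of 12. With 1 library left out the count was 0 to 16. The shares of all rows called in the alternatives of this section are not given here. Keeping near-identical rows once left 12 rows, of which 11 were called at EGME75, 10 for the slope and 7 from EGME60 to EGME75. That last count, 12 as reported, was 0 with chip as a block and 4 with depth as a covariate. It was 4 to 16 with 1 library left out. The count from EGME50 to EGME60, 0 as reported, was 11 of 23 with DESeq2 and 0 to 12 with 1 left out. With 1 left out, 17 to 18 rows were called at EGME75 and for the slope. For anticodons, chip as a block gave 0 at EGME60 (4 as reported), 0 from EGME50 to EGME60 and 0 from EGME60 to EGME75 (3 each). RLE factors, library totals, no filter, near-identical rows kept once and scaling on non-serine rows also gave 0 from EGME50 to EGME60. At EGME60, library totals, no filter, near-identical rows kept once and scaling on non-serine rows gave 3. With 1 left out, these counts were 2 to 4 at EGME60 (2 without EGME60 replicate 22), 0 to 4 and 2 to 4. With chip as a block, the serine share differed by -8.83 and -19.1 points and the ratio to leucine by -0.509 and -1.15 at EGME60 and EGME75, none past the threshold after adjustment. There 5 and 6 chips held both groups, so that few relabelings were possible. The ratio of SerGCT to the other anticodons at EGME75 passed with near-identical rows counted once (-0.368). With 1 left out, the differences ran from -15.0 to -11.9 and -22.1 to -19.4 points for the share, from -1.07 to -0.769 and -1.55 to -1.22 for the ratio to leucine, and from -0.379 to -0.199 and -0.293 to -0.196 for the SerGCT ratio, at EGME60 and EGME75. At EGME50 they ran from -3.18 to -0.465 points, -0.223 to -0.0542 and -0.159 to -0.0511. Over single anticodons and named rows with all libraries kept, 754 alternative values kept their side of the threshold, 73 gained a call and 49 lost one. The 754 include the EGME50 comparisons, where no call was made in these alternatives. With 1 library left out, 3295 values kept their side, 134 gained a call and 81 lost one. No called value changed sign in either case. What caused the shifts given in this section was not tested. The scaling itself moved the median of all rows at EGME75, from 0.16 to 0.39 with library totals and to -0.163 with scaling on non-serine rows. It was -0.15 with near-identical rows kept once, which also changed the rows that enter the median. No paired analysis was possible because no replicate number occurred in more than 1 group. Matching was by chip only, as given above.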
